A study of Danio rerio with 6 samples.

Results

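The miR-29 family was read by 2 of the 218 microRNA (miRNA) probes of a zebrafish array, dre-miR-29a and dre-miR-29b, which were picked by their probe names. The array was hybridised with RNA from hearts of adult Ekkwill (EK) zebrafish, a laboratory strain, in 3 samples of uninjured hearts (0 hours) and 3 of regenerating hearts, collected 6 hours after resection with scissors under MS222 anaesthesia. Each sample was a pool of hearts, of a number that the labels do not state, and the series' design calls the replicates biological. No group carried a transgene or mutation in the labels. In each group 2 samples were stained with Cy3 and 1 with Cy5: uninjured replicate 2 and regenerating replicate 3 were the Cy5 samples. Both probes were above background in all 6 samples, and both read lower in the regenerating hearts than in the uninjured ones.

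A miRNA is a short RNA that guides Argonaute proteins to messenger RNAs with a complement to its seed, the stretch near its 5′ end, and lowers their translation and stability. In mammals the miR-29 family is known for repressing collagens, fibrillin and elastin, and its level falls in fibrotic tissue, including the region that borders an infarct in the mouse heart. The zebrafish heart lays down matrix after injury and later removes it, which is the background to looking at this family early after amputation.

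The target sequences that the array files give for the 2 probes are printed here because they show what the probes share and where they differ; capitals mark the seed, bases 2 to 8.

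dre-miR-29a: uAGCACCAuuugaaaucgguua

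dre-miR-29b: uAGCACCAuuugaaaucagugu

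The seed AGCACCA occurred in the targets of these 2 probes and in no other of the 218. Both targets are 22 bases long with 36.4% G and C, and their first 17 bases are identical. Counted from the 5′ end, with the base of miR-29a first, the differences were G18A, U21G and A22U, all at the 3′ end. The nearest target of any other miRNA lay at an edit distance of 8 from miR-29a (miR-16a) and of 7 from miR-29b (miR-723). Whether each probe also captured the other family member was not tested, so the 2 readings may share signal. In the RefSeq annotation of assembly GRCz12tu, 1 gene entry was named for miR-29a and 3 for miR-29b. The miR-29a entry mir29a-1 and the miR-29b entry dre-mir-29b3, also listed as mir29b-2, were direct neighbours, lying between net1 and mkln1, while the other miR-29b entries had no miR-29 neighbour. The probes measure the mature miRNAs and cannot tell which of these genes they came from.

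Each probe had 12 spots per array, in 4 blocks of 3, and background was read locally, from the 16 empty spots closest to each spot (their median). Above that background, dre-miR-29a read 7147, 8245 and 7084 in the uninjured samples, in order of replicate number, and 4000, 2253 and 2085 in the regenerating samples, in arbitrary units of intensity before any scaling between arrays. The 3 uninjured samples lay close together and all above the regenerating ones, among which replicate 1 stood highest. dre-miR-29b read 1309, 1200 and 1231 in the uninjured samples and 502, 355 and 236 in the regenerating samples. The uninjured samples again lay close together and the groups did not overlap, with regenerating replicate 3 the lowest. Group means were 7492 ± 653 and 2779 ± 1060 for miR-29a and 1246 ± 56.1 and 364 ± 134 for miR-29b (SD, n = 3 each). Among all 138 probes tested, 15.9% had all 3 regenerating samples below all 3 uninjured ones on this unscaled intensity.

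The 12 spots of a probe agreed closely for miR-29a and less so for miR-29b. The coefficient of variation over spots ran from 3.54% to 8.07% for miR-29a and from 10.2% to 21.1% for miR-29b. At each of the 12 spot positions all 3 regenerating samples read below all 3 uninjured samples, for miR-29a and for miR-29b alike. Spots of 1 array share its RNA, so this describes the evenness of the arrays and adds no replicates. The distance from background differed between arrays. The reading closest to background was miR-29b in regenerating replicate 2, with a raw 925 units against a local background of 570. Its net signal was 7.42 SDs of the empty spots, while in the other samples miR-29b stood at 40.4 to 335 SDs.

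**Figure D1:**
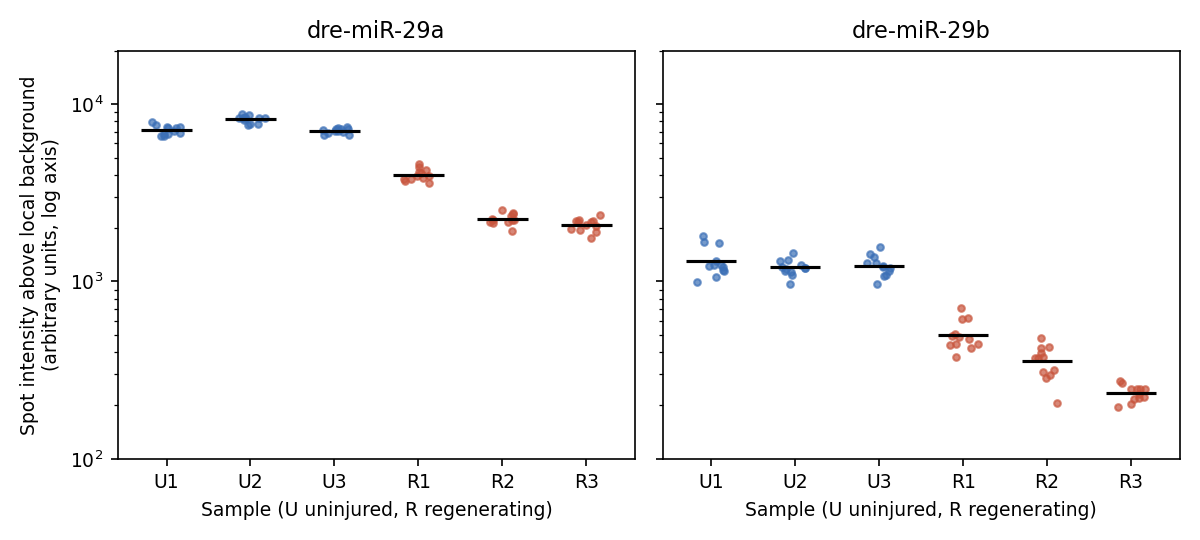
Intensity above local background of every spot (points, log axis, arbitrary units) for both probes in the 3 uninjured (U1 to U3) and 3 regenerating (R1 to R3) samples, with bars at the mean of the 12 spots. For each probe all regenerating means lie below all uninjured means, from 7084 to 8245 down to 2085 to 4000 for miR-29a.

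Intensity before scaling also carries differences between whole arrays. A rank within an array does not depend on any factor that multiplies the whole array. Ordered by net intensity among the 218 probes, with 1 the brightest, dre-miR-29a was in place 43, 42 and 46 in the uninjured samples and 57, 56 and 57 in the regenerating samples. dre-miR-29b was in place 74, 76 and 78 in the uninjured samples and 93, 96 and 92 in the regenerating samples. Both thus stood further down the order in every regenerating sample, by 13.0 places for miR-29a and 17.7 places for miR-29b in the mean. The exact two-sided permutation test gave p = 0.1 for either probe, which is the smallest p that the 20 assignments of 3 against 3 samples allow. Of the 138 tested probes, 13.0% had all regenerating ranks further down than all uninjured ranks. A rank is one of brightness, since probes differ in how well they bind, and it is not an order of abundance.

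**Figure D2:**
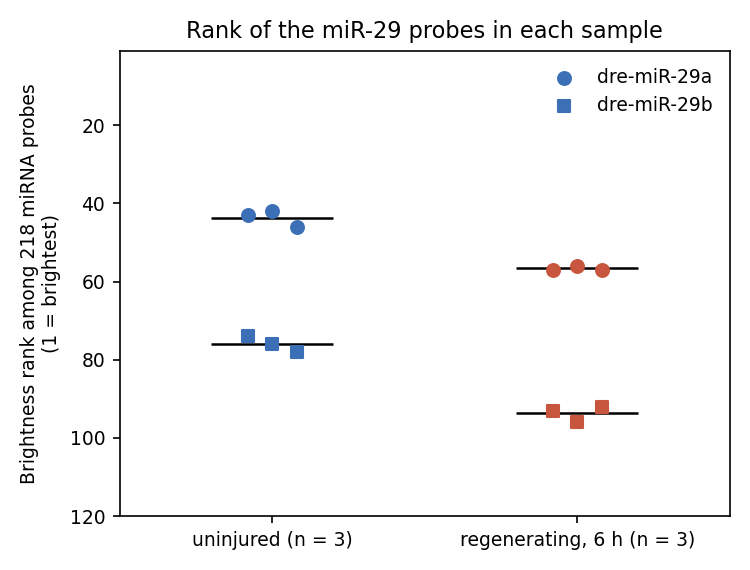
Brightness rank of dre-miR-29a (circles) and dre-miR-29b (squares) among the 218 miRNA probes in each sample, 1 being the brightest, with bars at the group means (n = 3). The regenerating samples lie at 56 to 57 and 92 to 96, the uninjured samples at 42 to 46 and 74 to 78.

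The test across probes used log2 intensities corrected with normexp (a model-based background correction with an offset of 50) and quantile-normalized over the 218 miRNA probes. On that scale dre-miR-29a stood at 12.47, 12.50 and 12.37 in the uninjured samples and at 11.72, 11.82 and 11.82 in the regenerating samples. Means were 12.44 ± 0.068 and 11.79 ± 0.054 (SD, n = 3 each), without overlap. Quantile normalization sets each value by the rank of the probe on its array. These SDs thus show the spread of ranks and not of intensity, and the reading largely repeats the ranks. Before scaling, the regenerating SD of miR-29a was 1060 on a mean of 2779. dre-miR-29b stood at 10.34, 10.15 and 9.999 in the uninjured samples and at 8.89, 8.58 and 8.99 in the regenerating samples. Its means were 10.16 ± 0.17 and 8.82 ± 0.21 (SD, n = 3 each), again without overlap. All 3 regenerating samples lay below all 3 uninjured samples in 13.8% of the 138 probes.

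In limma with a term for dye, miR-29b fell by 1.35 on the log2 scale (SE 0.17, limma adjusted p = 0.0125). In normalized intensity this was 2.54-fold lower, with a 95% interval of 1.90 to 3.40. miR-29a fell by 0.66 (SE 0.12, limma adjusted p = 0.0493), 1.58-fold lower with an interval of 1.29 to 1.94. Both intervals hold for this normalization, in which values follow ranks, and do not cover the choice of processing. Both of the 2 members were called lower, where 2.17% of the 138 tested probes were called lower and 3.62% were called in either direction at an adjusted p below 0.05. The 3 probes called lower were the 2 members and miR-200b, so the members make up most of the share they are set beside. On simulated spots the same correction, normalization and fit made more false calls than the threshold allows. The probe filter and the noise there differed from those of the data, so the size of that excess does not carry over. An adjusted p close to 0.05, as for miR-29a, should still be taken as weaker than it reads. The members were named with these calls known, so the count of 2 of 2 is a description. miR-29b had the lowest change of all 138 probes, and 11 probes lay below miR-29a. The median change of all probes was -0.051. In whole-heart RNA, fewer cells of a type and less miRNA per cell cannot be told apart.

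The size of the fall depended on how the arrays were processed. Whether it was called depended on the processing and on which samples were in the fit. In all 28 alternative fits both probes were lower in the regenerating hearts, with log2 changes from -1.95 to -0.36 for miR-29a and from -2.03 to -0.77 for miR-29b; miR-29a was called in 12 of the 28 and miR-29b in 17. Leaving out 1 sample kept both calls only for regenerating replicate 1 (limma adjusted p = 0.0268 for miR-29a and 0.0257 for miR-29b). With each of the other 5 samples left out in turn, the limma adjusted p ran from 0.093 to 0.312 for miR-29a and from 0.0507 to 0.183 for miR-29b. The changes themselves stayed within -0.70 to -0.61 and -1.48 to -1.15. A fit with 1 sample left out also has fewer values from which to estimate the spread.

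**Figure D3:**
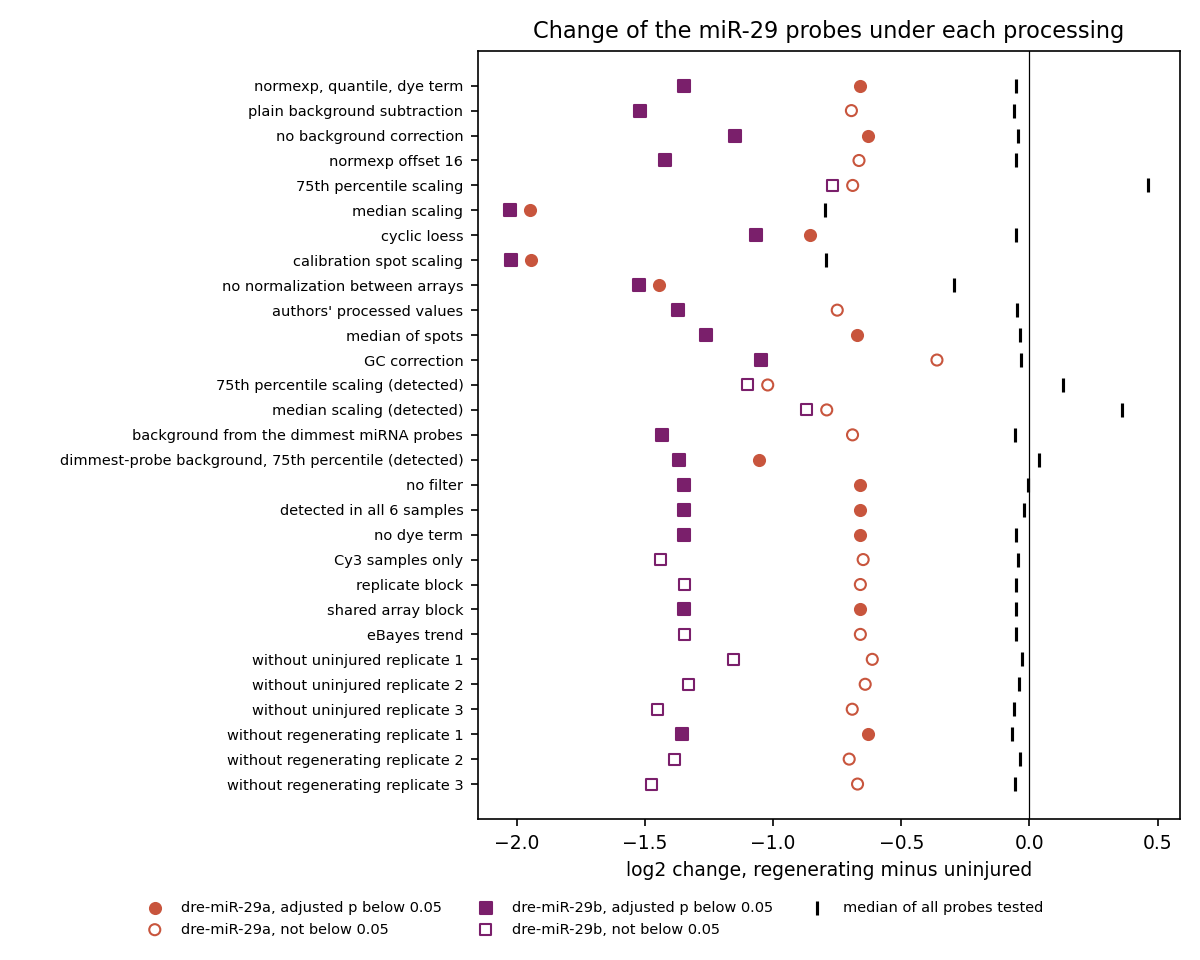
log2 change (regenerating minus uninjured) of dre-miR-29a (circles) and dre-miR-29b (squares) under the processing of the text (top line) and each alternative, filled where the limma adjusted p was below 0.05, with a tick at the median of all probes tested in that fit; "detected" marks scaling over probes detected in all 6 samples. Both probes lie below 0 on every line and below the tick in each.

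Scaling by a single factor per array set the family apart from other probes in another way. After scaling to the 75th percentile of the 105 probes detected in all 6 samples, miR-29a stood at -1.02 and miR-29b at -1.10, with a median of all probes at 0.13 (limma adjusted p = 0.0644 and 0.0760). Less that median they stood at -1.15 and -1.23. These distances are the same for every single-factor scaling of the normexp values, by construction. Of the 138 probes 2 lay below miR-29a and 1 below miR-29b on that scale. The same 75th percentile scaling was also run with the background taken from the dimmest miRNA probes, a step chosen after the data were seen. There the distances were -1.09 and -1.40, and both members were called (limma adjusted p = 0.0427 and 0.0159), with 4 probes below miR-29a and 0 below miR-29b. With quantile normalization the distances from the median were -0.61 and -1.30. The place of miR-29a among all probes thus moved more with the scaling than that of miR-29b.

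**Figure D4:**
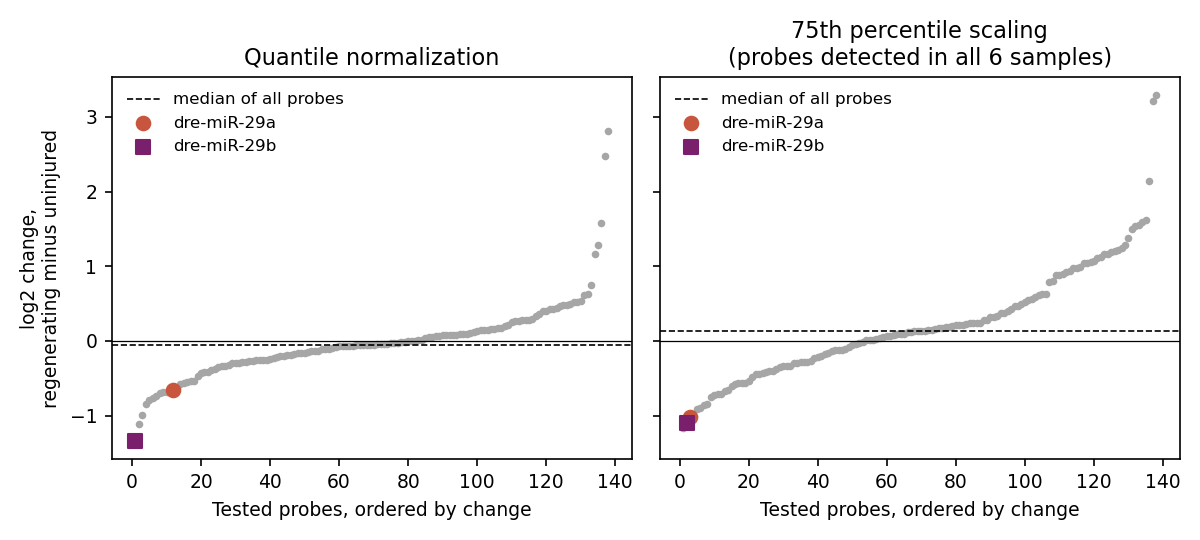
log2 change (regenerating minus uninjured) of the 138 tested probes, each panel ordered by its own values, with quantile normalization on the left and, on the right, scaling to the 75th percentile of the probes detected in all 6 samples; the dashed line is the median of all probes. On the left miR-29b is the lowest point at -1.35 and miR-29a lies at -0.66; on the right they lie side by side at -1.10 and -1.02.

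The changes were also read against the content of G and C in the target. The 16 tested probes with 36.4% in the target included both miR-29 probes. Their median change was -0.38 with quantile normalization, against -0.051 for all 138, so the members enter the median they are set beside. Of these 16, 5 lay below miR-29a, including miR-29b, and 0 below miR-29b. After a correction for the linear trend with this content, miR-29b stood at -1.05 and was still called (limma adjusted p = 0.0410), while miR-29a stood at -0.36 and was not (limma adjusted p = 0.192). The part of base composition in the fall of miR-29a was not tested further.

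The ratio of miR-29a to miR-29b within a sample is free of any factor that scales the whole array, though not of the background. Probes bind with different strength, so it is a ratio of brightness and not of molecules. With local background subtracted the ratio was 5.46, 6.87 and 5.76 in the uninjured samples and 7.96, 6.34 and 8.85 in the regenerating samples. miR-29a was the brighter probe in all 6 samples, and the groups overlapped because regenerating replicate 2 fell among the uninjured samples (exact two-sided permutation p = 0.2). The mean log2 ratio was 2.58 ± 0.17 in uninjured and 2.93 ± 0.25 in regenerating samples (SD, n = 3 each).

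Dim miRNA probes stood above the empty spots on some arrays. The 10th percentile of net intensity over the 218 probes was 10.04, 0.656 and 13.5 in the uninjured samples and 46.6, 53.6 and 3.18 in the regenerating samples. Regenerating replicates 1 and 2 were thus the arrays where spots without an evident miRNA read highest over the empty ones. With that 10th percentile subtracted as well, a step chosen after the data were seen, the ratio was 5.49, 6.87 and 5.81 in the uninjured samples and 8.67, 7.29 and 8.96 in the regenerating samples. In this reading the groups did not overlap, and the geometric means were 6.03 and 8.27.

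In the authors' processed intensities miR-29a read 4696, 4590 and 4136 in the uninjured samples and 2424, 2723 and 2841 in the regenerating samples. miR-29b read 986, 884 and 726 in the uninjured samples and 302, 317 and 383 in the regenerating samples. Both probes were lower in every regenerating sample, by a ratio of means of 1.68 for miR-29a and 2.59 for miR-29b. On these values limma called miR-29b (log2 change -1.37, adjusted p = 0.0218) and not miR-29a (-0.75, adjusted p = 0.0730). The ratio of miR-29a to miR-29b in the authors' values was 4.76, 5.19 and 5.70 in the uninjured samples and 8.04, 8.59 and 7.42 in the regenerating ones, without overlap.

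Whether miR-29b fell more than miR-29a therefore depended on the background and the normalization. The log2 ratio of miR-29a to miR-29b was higher in the regenerating samples by 0.69 after quantile normalization, 0.62 in the authors' values, 0.46 with the dimmest probes subtracted, 0.35 with local background subtracted and 0.079 after normexp without normalization; on raw intensities it was lower by a log2 difference of -0.13. The groups did not overlap in the first 3 of these and overlapped in the other 3. The exact two-sided permutation p was 0.1, the smallest possible, in each of those 3, which became 0.2 after Benjamini-Hochberg adjustment over the 6 readings. A design of 3 against 3 cannot reach 0.05 in this exact test, so a larger fall of miR-29b than of miR-29a was not established.

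**Figure D5:**
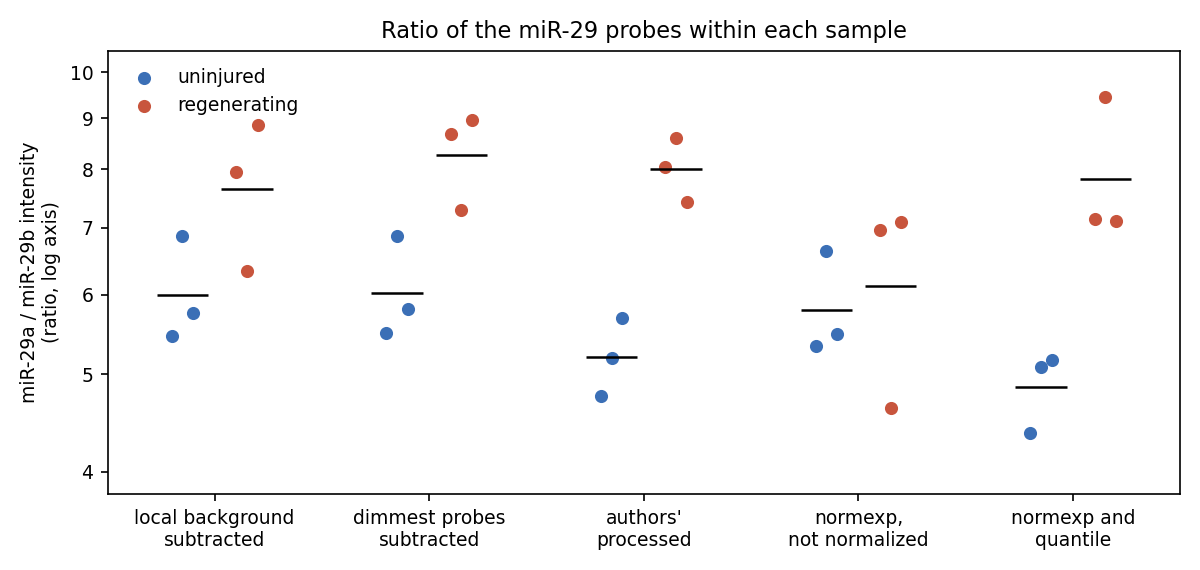
Ratio of dre-miR-29a to dre-miR-29b intensity within each sample (points, log axis) under 5 ways of treating background and scaling, with uninjured samples in blue, regenerating samples in red and bars at the geometric mean (n = 3). The groups separate for dimmest-probe subtraction, the authors' values and quantile normalization, and overlap for the other 2.

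The probes most like miR-29a and miR-29b across samples included each other. Over the 6 samples their normalized log2 intensities correlated at a Pearson r of 0.969, hardly above that of the next probe; the points share arrays, dyes and the group difference, and the shared sequence of the targets could add to it. Next in likeness to miR-29a were miR-19b (r = 0.969) and the epithelial miR-200b (r = 0.965). Next to miR-29b were miR-19b (r = 0.967) and miR-31 (r = 0.953). Of these 3 only miR-200b was called, at a log2 change of -0.79 (limma adjusted p = 0.0378), while miR-19b stood at -0.56 and miR-31 at -0.63 (limma adjusted p = 0.115 and 0.129). With 75th percentile scaling over the probes detected in all 6 samples, miR-19b stood at -0.56, miR-200b at -0.10 and miR-31 at 0.38, so the value of miR-31 turned sign. Probes with little change after quantile normalization, such as miR-217 (-0.14) and miR-489 (-0.0015), stood at 1.12 and 1.21 on that scale. The sign of miR-200b or miR-31 there thus does not settle whether they fell. On that scale miR-29b was in place 2 of the probes most like miR-29a and miR-29a in place 7 for miR-29b, and after GC correction the places were 5 and 12. These targets differ from those of miR-29 by 10 to 12 edits.

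Probes of similar brightness in the uninjured hearts did not all move alike. Next above and below miR-29a, at normalized log2 intensities of 12.46 to 12.39, were miR-17a and miR-20a, of clusters linked to proliferation, then miR-15a and miR-145. These lay within the spread of miR-29a in the uninjured samples, and their log2 changes were 0.055, -0.058, -0.28 and 0.44. Around miR-29b were miR-724 at 10.30, miR-462 at 10.23, miR-130c at 9.92 and miR-15c at 9.90. Their changes were -1.11, -0.85, -0.050 and 0.27. None of these 8 neighbours was called (limma adjusted p from 0.129 to 0.903), which is near the share of 3.62% called among all 138 probes. The brightness order of miR-724, miR-462 and miR-29b cannot be told apart within an SD of 0.098 to 0.33.

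Other miRNAs that are tied to matrix or fibrosis in mammals were near the shares of all probes. Of a list of 17 such probes, all tested, 0 rose and 0 fell in limma, where 3.62% of all probes were called. At an unadjusted p below 0.05 there were 4 of the 17, against 28 of all 138 (20.3%). Of the list 9 lay below 0 and 8 above, against 81 of 138 below 0, and the median change was -0.021 against -0.051 for all probes. The list member with the lowest change was miR-101a, known in mammals as a repressor of EZH2, a histone methyltransferase. It stood at 11.32, 11.22 and 11.32 in the uninjured samples and at 9.95, 10.60 and 10.34 in the regenerating samples. These groups did not overlap, but the log2 change of -0.99 (SE 0.20) did not pass (limma adjusted p = 0.0652). It did pass in 8 of the alternative fits. With quantile normalization it was the only list member below miR-29a, and none lay below miR-29b, but with 75th percentile scaling over the probes detected in all 6 samples miR-101a stood at -1.16, below both members.

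Further list members had changes in either direction. miR-133c, of a muscle family that in mammals represses connective tissue growth factor, had the largest size, at 1.58 (SE 0.59, limma adjusted p = 0.219), with overlapping groups. miR-101b stood at -0.58 (SE 0.37) and miR-145, a miRNA of vascular smooth muscle, at 0.44 (SE 0.15), and neither passed; both changed sign under some scalings. The miR-30 members, which in mammals share the growth factor target of miR-133, ran from -0.26 to 0.13. miR-21, which rises in fibrotic mammalian hearts, stood at -0.13 (SE 0.19), and miR-26a and miR-26b at -0.11 each. miR-214 stood at 0.42 (SE 0.15) without overlap between the groups and was not called (limma adjusted p = 0.219). With 75th percentile scaling over the probes detected in all 6 samples it stood at 0.13.

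The heart muscle miRNAs miR-1, miR-133a and miR-499 were detected in all 6 samples, with a summed normalized intensity of 79666 to 83893 in uninjured and 73829 to 86316 in regenerating samples. Quantile normalization sets such values by rank, so sums of bright probes can hardly differ between arrays and do not show a steady cell content. Net of background and without scaling, miR-1 ran from 19575 to 34708 and miR-499 from 26270 to 52957 over the 6 samples. Tested markers of smooth muscle (2 of 2), endothelium (1 of 1), leukocytes (2 of 4 probes) and red blood cells (1 of 2) had sums with overlapping or touching ranges. The untested miR-142a-3p and miR-142a-5p were detected in 1 of 6 samples each, and miR-144 in 2. In limma 0 were called, against 3.62% of all probes. An unadjusted p below 0.05 was reached by 1 of the 2 tested smooth muscle probes and 1 of the 2 tested leukocyte probes. For heart muscle it was 0 of 3, and for endothelium and red blood cells 0 of 1 each, where the share of all probes was 20.3%. Sums can hide single markers. For miR-133a the log2 values ran from 13.44 to 13.58 in uninjured and from 13.64 to 13.84 in regenerating samples. For miR-145 they ran from 12.29 to 12.55 and from 12.67 to 13.05. Neither was called (limma adjusted p = 0.295 and 0.180). Within the leukocyte list miR-150 was by far the brighter and stood at -0.038, while miR-223, a miRNA of myeloid cells, stood at 1.16 (limma adjusted p = 0.131) and at 1.21 with 75th percentile scaling over detected probes. The brain markers miR-9 and miR-124 were at background in 5 of the 6 samples. Markers of other tissues had these quantile-normalized values beside the fall of miR-29: the 3 tested of 4 epithelial probes summed to 762 to 837 in uninjured and 469 to 556 in regenerating samples, and the skeletal muscle miRNA miR-206 read 107 to 143 and 331 to 2088, neither with overlap. Only miR-200b of these passed the test (limma adjusted p = 0.219 for miR-200a, and 0.115 for miR-200c and for miR-206). At an unadjusted limma p below 0.05 there were 3 of the 3 tested epithelial probes and the 1 skeletal muscle probe, against 20.3% of all probes. With 75th percentile scaling over detected probes miR-200a stood at 0.47, miR-200b at -0.10, miR-200c at 0.071 and miR-206 at 3.30, so the epithelial probes were not clearly below 0 on that scale. The difference between that scale and quantile normalization was not the same for all probes. Percentile scaling shifts every probe of an array by 1 factor, whereas quantile normalization sets values by rank. After quantile normalization miR-217 stood at -0.14, miR-489 at -0.0015 and miR-126 at 0.10. With 75th percentile scaling over detected probes they stood at 1.12, 1.21 and 0.18. Whether the epithelial level fell thus cannot be read from its distance to 0 on either scale alone. The liver miRNA miR-122 read 111 to 138 and 112 to 382. The part of cell mixture in the fall of miR-29 was not tested. The arrays differed as well: empty spots had a median of 43.0 to 507 in uninjured and 54.1 to 560 in regenerating samples, and 217 of the 218 probes counted as detected in regenerating replicate 1 against 110 in regenerating replicate 2.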

How the data were processed

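Per the labels' protocols, a service company enriched small RNA from 4 µg of total RNA, extended it with a poly(A) tail carrying a tag, which was then labelled with either Cy3 or Cy5 dye. The deposited spot files hold, per the file headers, a mean intensity for each of 3968 spots on a linear scale with its spread. Their empty spots are far above 0, so no background had been removed. The authors' processed intensities came as a table of the whole series. Its scale is linear and neither label nor header states its background or scaling method. Its columns correlated with the log2 values computed here at r of 0.991 to 0.993.

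Local background, normexp (offset 50), log2, the mean of 12 spots and quantile normalization gave 1 value per probe. A probe was detected where its net mean passed 3 SDs of the empty spots. limma tested the 138 probes seen in 3 or more samples (limma 3.58.1, R 4.3.3, lmFit and eBayes with a dye term). Benjamini-Hochberg adjustment ran over all 138 at a threshold of 0.05. The correction, normalization and fit were tested on simulated spots with another probe filter and even noise. The larger known changes were mostly recovered there, but false calls exceeded the nominal rate. Single ratios and ranks had exact permutation tests. Alternatives covered background, offset, scaling, filter, dye, blocks, trend, base composition and left-out samples. Named probes were the 2 members, the 3 most correlated with each, the 2 on either side in brightness, and up to 4 matrix miRNAs with the largest change, with further list members chosen after their values were seen. Members and lists were chosen with earlier results of these data known. The number of arrays limits the precision.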

Additional observations from a re-analysis of the deposited data

How the results depend on the processing

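In each of the 28 alternative fits both miR-29 probes kept their direction, though many of these fits share values and are not separate checks. The background from the dimmest miRNA probes and scaling over the probes detected in all 6 samples are choices made after seeing the data. The fall of miR-29a was not called with plain background subtraction (-0.69), normexp offset 16 (-0.66), 75th percentile scaling (-0.69), that scaling over probes detected in all 6 (-1.02), median scaling over those probes (-0.79), the authors' values (-0.75), GC correction (-0.36), the background from the dimmest probes (-0.69), the Cy3 samples only (-0.65), the replicate block (-0.66) and an eBayes trend (-0.66). The fall of miR-29b was not called with 75th percentile scaling (-0.77), the same over probes detected in all 6 (-1.10), median scaling over those probes (-0.87), the Cy3 samples only (-1.44), the replicate block (-1.35) and an eBayes trend (-1.35). With 1 sample left out the changes ran from -0.70 to -0.61 and from -1.48 to -1.15. The 5 probes called became 9 with 75th percentile scaling, 27 with median scaling, 10 with calibration spot scaling, 11 without normalization, 3 with GC correction, 0 with the Cy3 samples only (limma, 18 at an unadjusted p below 0.05), 1 with the replicate block, 9 with a shared array block, 3 with an eBayes trend and 11 at an unadjusted p below 0.01. With 1 sample left out the limma count was 0 to 23: 0 without uninjured replicate 2 (19 at an unadjusted p below 0.05) or regenerating replicate 3 (18), 1 without uninjured replicate 1 or 3, 2 without regenerating replicate 2, and the highest without regenerating replicate 1. The median change of all probes was 0.46, -0.80 and -0.79 with 75th percentile, median and calibration scaling, so absolute falls in those fits include that shift. miR-101b turned to 0.88 with 75th percentile scaling, 0.12 without normalization, and 0.54 and 0.77 with 75th percentile and median scaling over detected probes. miR-145 turned to -0.87 with median and with calibration scaling and to -0.37 without normalization. Single-factor scalings of the normexp values differ from each other only by a shift common to all probes. Why these 2 probes differ in sign from quantile normalization was not tested. Deviations from the group means in samples with the same replicate number correlated at r of 0.144, -0.445 and 0.377. These values were not corrected for dye, so they cannot decide whether the numbers pair the samples. The replicate block together with the dye term leaves little in 6 samples from which to estimate the spread. Under it the changes stayed at -0.66 and -1.35, and only the calls were lost. The array block paired regenerating replicate 1 with uninjured replicate 2, picked from the likeness of their empty spots (Spearman rho 0.458) and not from the labels. All other samples were put together in the other block. Whether the paired samples shared an array was not tested.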
